A study of Mus musculus with 18 samples.

Results

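The genes described here form the DNA damage checkpoint of the oocyte: Trp63, Trp53, Atm, Atr, Chek1, Chek2 and Brca1. They were taken by their gene symbols, without regard to any measured value, and all 7 of them were among the 30172 genes with a value in every library. Oocytes stop or die when their DNA is broken. ATM and ATR, the apical kinases, sense breaks and stalled replication and phosphorylate the effector kinases CHK2 and CHK1, BRCA1 serves repair by homologous recombination, and p53 and p63 switch on genes for cell cycle arrest and cell death. The p63 protein encoded by Trp63 is stored in an inactive form in the nuclei of primordial oocytes, and its activation through CHK2 and CHK1 removes damaged oocytes from the reserve. The libraries measured RNA, so the phosphorylation by which these proteins act was not observed.

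Whole ovaries of wild-type C57BL/6J F1 females were sequenced at postnatal day 3 (Pd3), Pd7 and Pd21. F1-HHcy pups were born to dams given a diet with 3% methionine, which raises blood homocysteine (hyperhomocysteinemia, HHcy), and F1-Control pups to dams on normal chow. According to the labels, the diet began 4 weeks before mating and lasted through gestation and lactation, the study's methods give another length, and all sires ate a normal diet while the pups themselves were not treated. Each of the 6 groups of diet and day had 3 libraries, 18 in all. Neither pooling of pups nor their litters are given in the sources, so a p-value measures only the spread between these libraries. By the labels batch 1 was made up of the Pd3 and Pd7 libraries and batch 2 of those from Pd21, so that each comparison of diets lay within a batch, while day and batch cannot be told apart where Pd21 is set against another day.

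Values are FPKM, in which the fragments of a gene are divided by its length and by the library's total over all genes, a scale on which different genes can be compared. Between 33630547 and 39399215 fragments were counted per library, and each checkpoint gene had 499 to 6000 of them. The counting error this implies (1.37% to 4.13%) was below the coefficient of variation within the group for 40 of 42 combinations of gene and group, the exceptions being Chek2 in F1-Control Pd3 and F1-HHcy Pd7. The germ cell and granulosa markers of an ovary were present in all groups as lists. However, 1 germ cell marker stayed under 1 FPKM throughout F1-HHcy Pd21 and 1 granulosa marker throughout F1-Control Pd3. The libraries of Pd3 and Pd21 held 1 library each that resembled the other diet more than its own: F1-HHcy Pd3 replicate 3 had a mean correlation of 0.953 with its own group and of 0.966 with the F1-Control libraries of that day, and F1-Control Pd21 replicate 2 had 0.971 and 0.973. Results of Pd3 and Pd21 are therefore given with and without these libraries. These libraries were picked by their likeness to the other diet, so leaving them out selects for a difference between the diets. P-values and calls of those fits show how far a result depends on 1 library and are no independent support. Diets were compared within a day with limma on log2(FPKM + 1) over all genes reaching 1 FPKM in 3 or more libraries of the fit, and a gene passed with a Benjamini-Hochberg adjusted p under 0.05. All 7 genes entered every fit.

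By that threshold, 0 of the 7 genes passed at Pd3, 1 passed at Pd7 and 0 passed at Pd21. Trp63 was the gene that passed, with a lower level in F1-HHcy ovaries. Among all genes tested, 3.07% passed at Pd3, 11.9% at Pd7 and 2.23% at Pd21. Of the 7 genes, 2 had an unadjusted p under 0.05 at Pd3 (Trp63 and Chek1), 2 at Pd7 (Trp63 and Atr) and 1 at Pd21 (Chek1), and limma-voom on fragment counts recovered from the FPKM passed 0, 1 and 0 of them. By the threshold of the study's volcano plots, an unadjusted p under 0.05 and a change of more than 0.58 in size, 1 of the 7 (Trp63, lower) passed at Pd3, 1 (Trp63, lower) at Pd7 and 0 at Pd21, beside 9.74%, 16.4% and 5.14% of all genes. Without F1-HHcy Pd3 replicate 3, 3 of the 7 passed at Pd3, with Trp63 and Atr lower and Chek1 higher, and the share of all genes that passed was 21.6%. That share depended on single libraries in the other direction too: it was 0% without F1-Control Pd3 replicate 1, 0.00764% without replicate 2 and 0.407% without replicate 3, and 0.643% and 0.646% without F1-HHcy Pd3 replicates 1 and 2, with 0 of the 7 genes passing in each of these fits. The other 4 genes had log2 fold changes from -0.09 (Chek2) to 0.30 (Brca1) in that fit. Without F1-Control Pd21 replicate 2, 0 of the 7 and 0.922% of all genes passed at Pd21, and 0.077% and 0.0077% of all genes without F1-Control replicates 1 and 3.

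**Figure D1:**
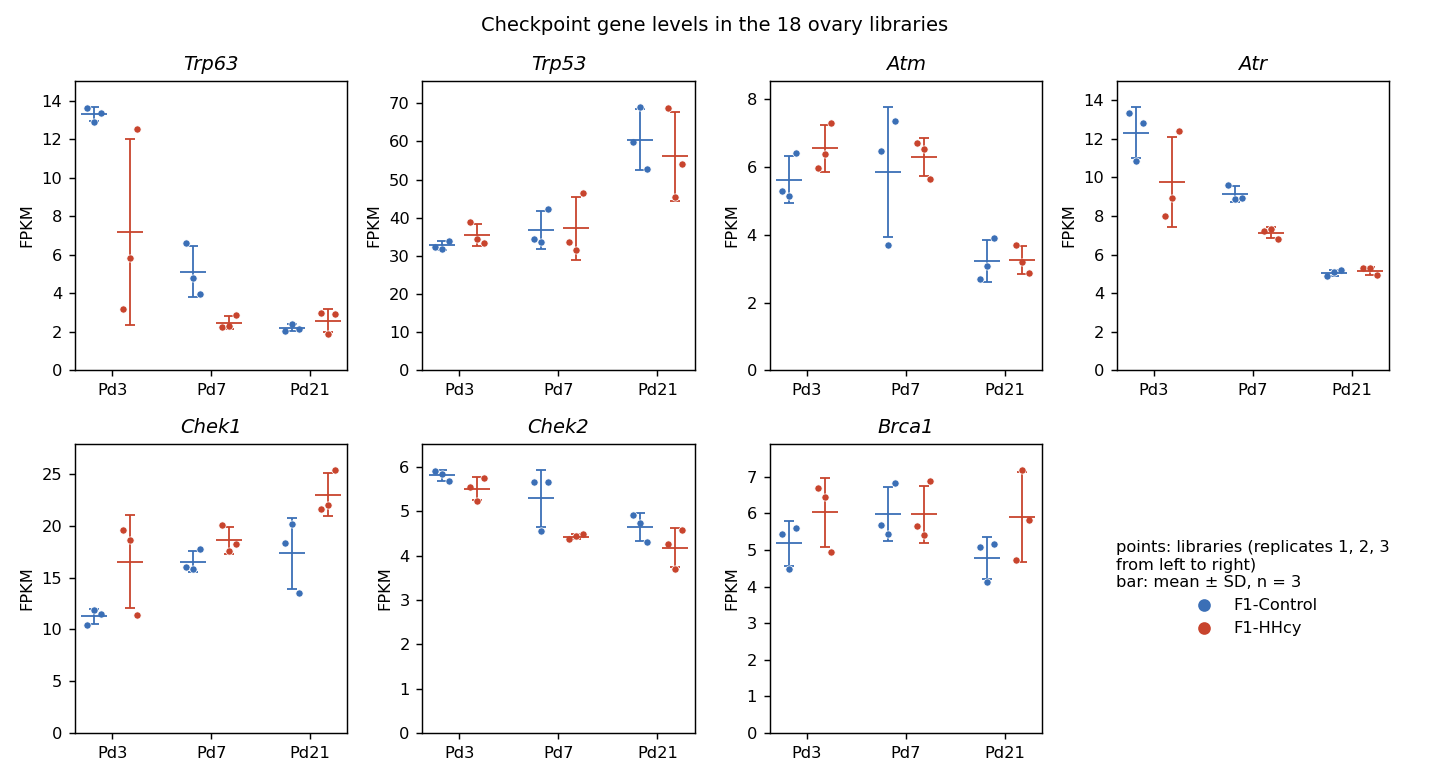
Level of each checkpoint gene in FPKM (vertical axis, from 0) by postnatal day (horizontal axis) in F1-Control (blue) and F1-HHcy (red) ovaries, with 1 point per library and bars for the mean ± SD (n = 3). Trp63 and Atr were highest at F1-Control Pd3 and low in both diets at Pd21, and F1-HHcy Pd3 replicate 3 lay near the F1-Control libraries for Trp63, Atr and Chek1.

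Trp63, on chromosome 16 (25683763 to 25892102, plus strand, GRCm38), encodes the oocyte guardian p63 and had the widest range, in fold terms, among the 7 genes. At Pd3 it measured 13.6, 12.9 and 13.3 FPKM in the F1-Control libraries and 3.19, 5.83 and 12.5 FPKM in the F1-HHcy libraries. Every F1-HHcy value lay below every F1-Control value, though replicate 3 missed them only narrowly, and 27.9% of all genes tested at Pd3 had groups without overlap. The means were 13.3 ± 0.36 and 7.18 ± 4.82 FPKM (SD, n = 3), and the log2 fold change was -0.97 (SE 0.37), with an adjusted p of 0.184 from limma. Without replicate 3 of F1-HHcy it was -1.42 (adjusted p = 0.00322 from limma), and over 13 alternative fits the adjusted p ran from 0.00322 to 0.424. That library carried germ cell markers at the level of the controls as well: the summed level of Ddx4, Dazl, Figla, Nobox, Lhx8, Sohlh1, Sohlh2 and Taf4b was 345 FPKM there, against 124 and 211 FPKM in the other F1-HHcy libraries and 353 to 381 FPKM in the F1-Control libraries.

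At Pd7, Trp63 measured 6.60, 4.80 and 3.98 FPKM in F1-Control and 2.26, 2.32 and 2.86 FPKM in F1-HHcy ovaries. The groups did not overlap, as for 39.0% of all genes tested on that day. The mean fell from 5.12 ± 1.34 to 2.48 ± 0.33 FPKM (SD, n = 3), a ratio of 0.484, and the log2 fold change was -0.80 (SE 0.19, adjusted p = 0.0246 from limma). The call was not a firm one: it held in 6 of 13 alternative fits, with adjusted p-values from 0.0134 to 0.108 and log2 fold changes from -1.02 to -0.63, and was lost on leaving out any single Pd7 library other than F1-Control replicate 3. The exact permutation test of this single gene gave p = 0.1 at Pd3 and at Pd7 (2-sided), the smallest value that 3 against 3 libraries allow.

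At Pd21, Trp63 measured 2.05, 2.41 and 2.15 FPKM in F1-Control and 2.95, 1.88 and 2.91 FPKM in F1-HHcy ovaries. These ranges overlapped, and the log2 fold change of 0.15 had a 95% interval from -0.28 to 0.57 (adjusted p = 1.00 from limma). The diet effect at Pd21 exceeded that at Pd3 by 1.12 (SE 0.41, adjusted p = 0.157 from limma) and that at Pd7 by 0.94 (SE 0.41, adjusted p = 0.215), so neither difference between days passed. The difference between Pd21 and Pd3 passed only in the fit without F1-HHcy Pd3 replicate 3, where it was 1.56 (adjusted p = 0.00245 from limma, and up to 0.358 over the 24 alternatives). None of the 7 genes passed in any of these 3 tests of a difference between days, where 0.411% of all genes passed for Pd7 minus Pd3, 4.59% for Pd21 minus Pd3 and 3.89% for Pd21 minus Pd7; an unadjusted p under 0.05 was found for 0, 1 and 1 of them, and limma-voom passed 0, 0 and 0. By the threshold of the volcano plots, 0, 1 and 1 passed (Trp63), beside 10.0%, 13.0% and 15.3% of all genes.

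The level of Trp63 fell between Pd3 and Pd7. From Pd3 to Pd7 it changed by -1.25 on the log2 scale in F1-Control ovaries (SE 0.29, adjusted p = 0.0130 from limma) and by -1.07 in F1-HHcy ovaries (SE 0.29, adjusted p = 0.0414 from limma). It was the single gene of the 7 that passed in either comparison, in which 11.4% and 5.48% of all genes passed. By the threshold of the volcano plots it was again the single gene in both, beside 13.7% and 11.8%. The F1-Control fall passed in 22 of 24 alternative fits (adjusted p from 5.08e-04 to 0.0727) and the F1-HHcy fall in 11 of 24 (0.00148 to 0.191). By median level the groups stood in the order F1-Control Pd3, F1-HHcy Pd3, F1-Control Pd7, F1-HHcy Pd21, F1-HHcy Pd7 and F1-Control Pd21. In that order, F1-HHcy Pd3 overlapped F1-Control Pd7, and the last 3 groups overlapped their neighbours.

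Trp63 moved with the germ cell markers. In every group its level was read beside the mean log2(FPKM + 1) of the 8 markers of germ cells and primordial oocytes, and bulk RNA cannot tell fewer oocytes from less RNA per oocyte. At Pd3 none of these 8 markers passed (5 had an unadjusted p under 0.05, and limma-voom passed 0), yet all 8 had a negative log2 fold change with a median of -0.88, against -0.03 over all genes tested. Without F1-HHcy Pd3 replicate 3, 7 passed as lower, beside 12.3% of all genes in that fit. At Pd7, 6 passed as lower (2 to 7 over 13 alternative fits) and 1, Taf4b, as higher, with a median of -1.17. Among all genes, 5.98% passed as lower and 5.88% as higher on that day. At Pd21 none of the 7 tested passed (0 with an unadjusted p under 0.05, 0 by limma-voom). Figla, a transcription factor needed to form primordial follicles, changed by -2.17 on the log2 scale at Pd7 (adjusted p = 0.00310 from limma), and Sohlh1, a regulator of early oocyte differentiation, by -2.66 (adjusted p = 0.00121).

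Relative to these markers, Trp63 differed between the diets by -0.20 at Pd3, 0.46 at Pd7 and 0.06 at Pd21 on the log2 scale (F1-HHcy minus F1-Control; exact permutation p = 0.2, 0.1 and 0.6, 2-sided, n = 3). At Pd7, where Trp63 itself passed as lower, its relative level lay between -1.38 and -1.31 in the F1-HHcy libraries and between -2.14 and -1.55 in the F1-Control libraries. The relative values of the F1-HHcy libraries were thus the higher ones, without overlap. Among markers of growing oocytes, all 9 of them (among them Gdf9, Bmp15 and the zona pellucida genes) had positive log2 fold changes at Pd3. On that day 2 passed as higher (Gdf9 and Zp3), beside 1.64% of all genes. It was 7 without F1-HHcy Pd3 replicate 3 (beside 9.34% of all genes) and 0 without any other library. At Pd7 2 passed as higher (Bmp15 and Oosp1) and 3 as lower (Ooep, Padi6 and Zp2), beside 5.88% and 5.98% of all genes. Over 13 alternative fits these Pd7 counts ran from 0 to 2 and from 0 to 4. Relative to those markers, Trp63 differed by -2.37 at Pd3 and -0.49 at Pd7 (exact permutation p = 0.1 and 0.3, n = 3).

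**Figure D2:**
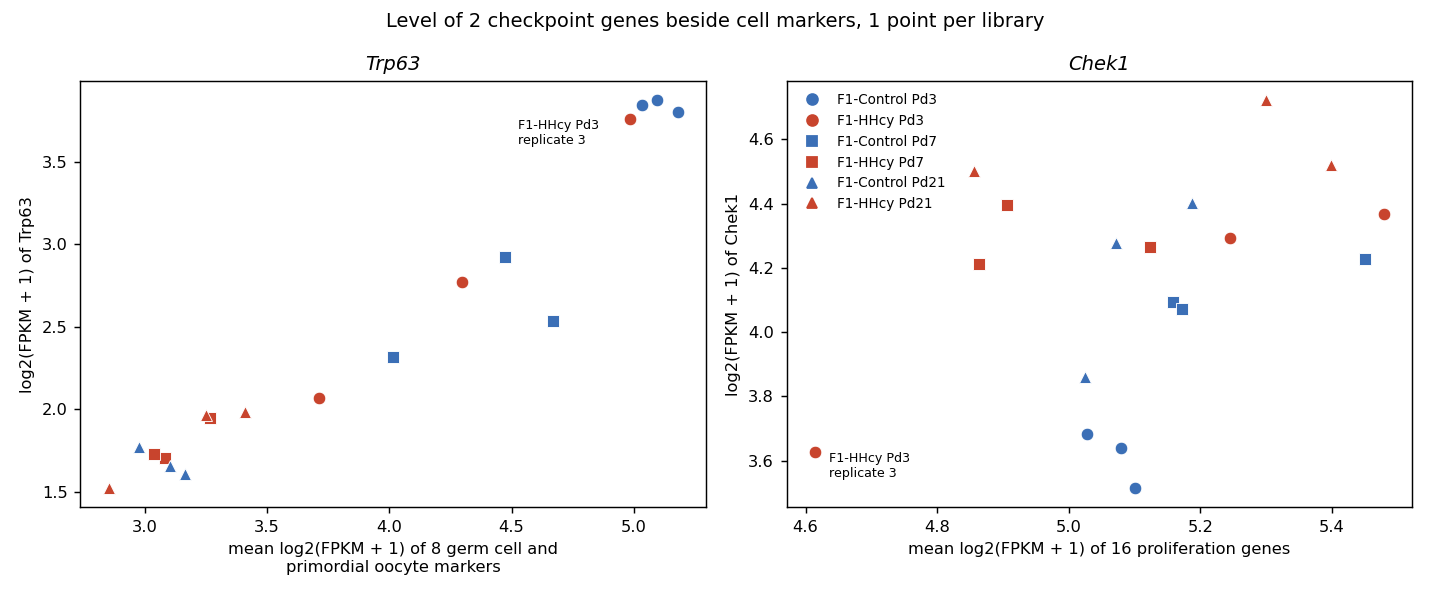
Left, log2(FPKM + 1) of Trp63 against the mean log2(FPKM + 1) of 8 germ cell and primordial oocyte markers, and right, the same of Chek1 against 16 proliferation genes, with 1 point per library (color for diet, shape for day). The Trp63 points rise with the markers, with F1-HHcy Pd3 replicate 3 beside the F1-Control Pd3 libraries, and the Chek1 points of F1-HHcy at Pd3 and Pd7 lie above those of F1-Control relative to the proliferation genes.

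The genes whose pattern over the 18 libraries was most like that of Trp63 were D1Pas1 (Pearson r = 0.988), Pnma5 (0.981), Rbm44 (0.981), Mageb4 (0.981) and Fam169a (0.981), on log2(FPKM + 1). D1Pas1 encodes a DEAD-box RNA helicase and Rbm44 an RNA-binding protein, both known from germ cells. The libraries share 6 groups of age and diet, so these correlations describe a common course and carry no test. Trp63 is also a gene of stratified epithelia, and markers of that tissue summed to 1.81 to 7.17 FPKM in the 18 libraries. Of the 2 tested at Pd3, 0 passed (0 with an unadjusted p under 0.05, 0 by limma-voom). At Pd7 2 of 3, Krt14 and Krt15, passed as lower (0 to 2 over 13 alternative fits), beside 5.98% of all genes. Hemoglobin and other erythroid genes were lower in F1-HHcy ovaries at Pd3 (6 of 6 passed) and Pd7 (5 of 5). Among all genes, 1.43% and 5.98% passed as lower on these days. However, 0 erythroid genes passed at Pd3 without F1-Control replicate 1 or 2. At Pd7, 0 passed without F1-Control replicate 2 or F1-HHcy replicate 1 or 3, and 2 without F1-HHcy replicate 2. Over the 18 libraries Trp63 correlated with the mean log2 level of the erythroid genes (Pearson r = 0.852). In F1-HHcy Pd3 replicate 3 they parted: the erythroid genes summed to 780 FPKM, against 3914 to 11214 FPKM in F1-Control Pd3, while Trp63 lay near the controls. The part of the erythroid genes in the Trp63 values was not tested.

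Trp53 (chromosome 11, 69580359 to 69591873, plus strand) encodes p53, a relative of p63, and was the most abundant of the 7 genes in 18 of 18 libraries. It measured 32.4, 31.9 and 33.9 FPKM in F1-Control and 38.8, 34.3 and 33.3 FPKM in F1-HHcy ovaries at Pd3. At Pd7 the values were 34.4, 33.6 and 42.4 against 33.6, 31.4 and 46.6 FPKM. At Pd21 they were 59.8, 68.9 and 52.8 against 68.7, 45.5 and 54.0 FPKM. The diets overlapped on every day, with log2 fold changes of 0.11, 0.00 and -0.12 whose 95% intervals stayed between -0.54 and 0.40 (adjusted p = 0.550, 0.991 and 1.00 from limma). All 6 libraries of Pd21 lay above 45 FPKM, and of the 12 earlier libraries only F1-HHcy Pd7 replicate 3 did.

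Of the apical kinases, Atm responds mainly to DNA breaks and Atr to single-stranded DNA at stalled forks and at unpaired meiotic chromosomes. Atr (chromosome 9, 95857597 to 95951781, plus strand) measured 13.3, 10.9 and 12.8 FPKM in F1-Control and 7.98, 8.95 and 12.4 FPKM in F1-HHcy ovaries at Pd3. The ranges overlapped through F1-HHcy replicate 3 alone. The log2 fold change was -0.32 (SE 0.17, adjusted p = 0.304 from limma), and -0.49 without that library (adjusted p = 0.0310; 0.0310 to 0.630 over 13 alternatives). At Pd7 it measured 9.61, 8.87 and 8.94 against 7.25, 7.35 and 6.82 FPKM. Here the groups did not overlap, with a ratio of 0.781 and a log2 fold change of -0.32 (SE 0.13, unadjusted p = 0.0396 and adjusted p = 0.140 from limma), which did not pass in any of 13 alternatives. At Pd21 the 6 libraries lay between 4.88 and 5.30 FPKM, and the diets overlapped with a log2 fold change of 0.03 (95% interval -0.30 to 0.35).

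Like Trp63, Atr had its highest median in F1-Control Pd3 and its lowest in F1-Control Pd21, and over the 18 libraries it correlated with Trp63 (Pearson r = 0.908). Its log2 fold change from Pd3 to Pd7 was -0.39 in F1-Control (adjusted p = 0.0682 from limma) and -0.38 in F1-HHcy ovaries (adjusted p = 0.0968). Neither passed. The genes most like Atr were Mios (r = 0.978), Rbm46 (0.978), which encodes an RNA-binding protein of germ cells, and Agtpbp1 (0.973). Exons of Atr overlap 2 antisense genes that had values, 1700065D16Rik and Gm16794, over 726 and 462 bases, and their mean levels were 0.113 and 0.119 FPKM.

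Atm (chromosome 9, 53439149 to 53536740, minus strand) ran between 2.702 and 7.37 FPKM. At Pd3 it measured 5.29, 5.16 and 6.42 FPKM in F1-Control and 5.97, 6.39 and 7.31 FPKM in F1-HHcy ovaries. At Pd7 the values were 6.48, 3.69 and 7.37 against 6.72, 6.54 and 5.66 FPKM, with a low F1-Control replicate 2, and at Pd21 2.702, 3.08 and 3.91 against 3.70, 3.20 and 2.87 FPKM. The diets overlapped on every day (log2 fold changes 0.19, 0.13 and 0.01; adjusted p = 0.436, 0.698 and 1.00 from limma). The Pd21 level was below that of Pd3 and Pd7 in both diets, apart from F1-Control Pd7 replicate 2, which lay within the Pd21 range. The genes most like it were Mga (r = 0.980), Ttc3 (0.970) and D830031N03Rik (0.968).

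Of the effector kinases, CHK1 acts downstream of ATR and holds cycling cells before mitosis, while CHK2 acts downstream of ATM and phosphorylates p63 in oocytes. Chek1 (chromosome 9, 36708482 to 36727065, minus strand) had positive log2 fold changes between the diets on all 3 days. At Pd3 it measured 10.4, 11.8 and 11.5 FPKM in F1-Control and 19.6, 18.6 and 11.4 FPKM in F1-HHcy ovaries. Replicates 1 and 2 of F1-HHcy stood well above the controls and replicate 3 among them. The log2 fold change was 0.48 (SE 0.20, unadjusted p = 0.0423 and adjusted p = 0.207 from limma), and 0.72 without replicate 3 (adjusted p = 0.00465; 0.00465 to 0.479 over 13 alternatives).

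At Pd7, Chek1 measured 16.1, 15.8 and 17.8 against 20.1, 17.5 and 18.2 FPKM. The ranges touched, and limma gave a log2 fold change of 0.16 with an SE of 0.13 (adjusted p = 0.431). At Pd21 it measured 18.4, 20.1 and 13.5 FPKM in F1-Control and 21.7, 22.0 and 25.4 FPKM in F1-HHcy ovaries. The groups did not overlap, as for 10.5% of all genes tested at Pd21, and the log2 fold change was 0.40 (SE 0.17, unadjusted p = 0.0468 and adjusted p = 0.704 from limma; 0.51 with an adjusted p of 0.585 without F1-Control replicate 2). In F1-Control ovaries the level was 11.2 ± 0.73 FPKM at Pd3 and 16.5 ± 1.05 FPKM at Pd7 (SD, n = 3), a log2 fold change of 0.52 that did not pass (adjusted p = 0.0607 from limma, passing in 4 of 24 alternatives).

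CHK1 holds cycling cells before mitosis, so Chek1 was also read beside 16 proliferation genes such as Mki67, Top2a and Ccnb1. None of them passed at Pd3 (0 with an unadjusted p under 0.05, 0 by limma-voom). Without F1-HHcy Pd3 replicate 3, 5 passed as higher, beside 9.34% of all genes in that fit. At Pd7, 1 (Rrm2) passed as lower, beside 5.98% of all genes (5 without F1-HHcy Pd7 replicate 3 and 0 without any other library). There 6 of the 16 had an unadjusted p under 0.05, and 14 had negative log2 fold changes. None passed at Pd21 (0 with an unadjusted p under 0.05, 0 by limma-voom). The median log2 fold changes of the proliferation genes were 0.06, -0.37 and 0.07 on the 3 days, so their level at Pd7 was itself lower in F1-HHcy ovaries. Relative to their mean log2 level, Chek1 differed by 0.44 at Pd3, 0.46 at Pd7 and 0.31 at Pd21 (F1-HHcy minus F1-Control; exact permutation p = 0.1, 0.1 and 0.3, 2-sided, n = 3). At Pd3 the relative level lay between -1.11 and -0.95 in F1-HHcy and between -1.59 and -1.35 in F1-Control libraries. The groups did not overlap there, F1-HHcy replicate 3 included. In that library the proliferation genes summed to 461 FPKM, against 890 and 757 FPKM in replicates 1 and 2. The F1-Control Pd3 libraries had 625 to 695 FPKM. Chek1 of replicate 3, at 11.4 FPKM, lay within the F1-Control range of 10.4 to 11.8 FPKM. The higher relative value of that library thus went with low proliferation genes and not with a higher Chek1. Its granulosa markers also summed to less than in replicates 1 and 2 (296 against 527 and 378 FPKM). So did its growing oocyte markers (1945 against 2230 and 2881 FPKM). Some markers of somatic cells moved at Pd3 as well. Amh and Inha of 7 granulosa cell markers and Col1a2, Lum and Pdgfra of 7 stroma markers passed as higher in F1-HHcy ovaries. Among all genes, 1.64% passed as higher. Without F1-HHcy replicate 3 it was 3 and 6 markers, beside 9.34% of all genes, and without any other library 0 to 1 of each list. With all libraries, 5 granulosa markers had positive and 2 negative log2 fold changes, with a median of 0.13. All 7 stroma markers were positive, with a median of 0.97. The granulosa list summed to 235 to 250.1 FPKM in F1-Control and 296 to 527 FPKM in F1-HHcy libraries, and the stroma list to 747 to 1010 and 1355 to 1643 FPKM. Their part in the Chek1 values was not tested. Over the 18 libraries Chek1 correlated at r = 0.411 with the mean log2 level of the proliferation genes. The values were 0.816 for the granulosa markers and 0.808 for those of growing oocytes. The genes most like Chek1 were 1600002D24Rik (r = 0.958), Rsl1d1 (0.953) and Arhgef39 (0.943).

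Chek2 (chromosome 5, 110839979 to 110874145, plus strand) varied little, between 3.70 and 5.91 FPKM. At Pd3 it measured 5.91, 5.84 and 5.68 FPKM in F1-Control and 5.54, 5.24 and 5.75 FPKM in F1-HHcy ovaries. At Pd7 the values were 5.66, 4.55 and 5.66 against 4.37, 4.43 and 4.48 FPKM, and at Pd21 4.92, 4.73 and 4.30 against 4.26, 3.70 and 4.58 FPKM. The groups did not overlap at Pd7, where F1-Control replicate 2 lay just above the F1-HHcy libraries, and the log2 fold change was -0.21 (SE 0.15, adjusted p = 0.351 from limma). It was -0.07 at Pd3 and -0.13 at Pd21 (adjusted p = 0.757 and 1.00 from limma). The genes most like it were Vdr (r = 0.923), Lhx9 (0.888) and Odf2 (0.875).

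Brca1 (chromosome 11, 101488764 to 101551955, minus strand) lay between 4.13 and 7.19 FPKM. At Pd3 it measured 5.45, 4.48 and 5.61 FPKM in F1-Control and 6.70, 6.45 and 4.95 FPKM in F1-HHcy ovaries. At Pd7 the values were nearly the same in both diets, with 5.68, 5.43 and 6.83 against 5.65, 5.40 and 6.87 FPKM, and at Pd21 they were 5.08, 4.13 and 5.16 against 4.72, 7.19 and 5.81 FPKM. The diets overlapped on every day, with log2 fold changes of 0.18, 0.00 and 0.24 (adjusted p = 0.505, 0.995 and 1.00 from limma). Relative to the proliferation genes, the F1-HHcy values at Pd7 were higher by 0.29 without overlap (-2.19 to -2.15 against -2.49 to -2.42, exact permutation p = 0.1, n = 3). The proliferation genes themselves had a median log2 fold change of -0.37 on that day. The relative values at Pd3 and Pd21 overlapped. The genes most like it were Zfp449 (r = 0.853), Etfdh (0.831) and Sgo2a (0.795), a weaker likeness than that of the other 6 genes.

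**Figure D3:**
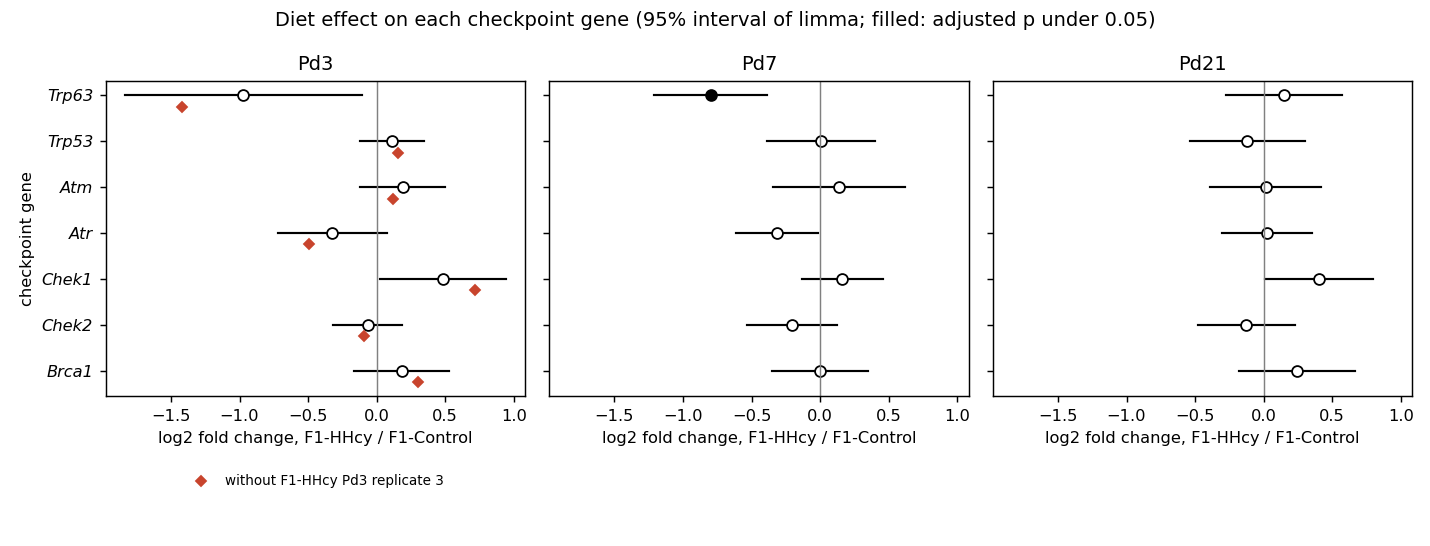
Log2 fold change of each checkpoint gene between F1-HHcy and F1-Control ovaries (horizontal axis) on each day, with its 95% interval from limma; a filled point passed at an adjusted p under 0.05, and red diamonds give the Pd3 values without F1-HHcy Pd3 replicate 3. Trp63 at Pd7 is the single filled point, and without that replicate the Pd3 values of Trp63, Atr and Chek1 lie farther from 0.

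Besides Trp63, the genes whose diet groups did not overlap at Pd7 were Atr and Chek2. These 3 of 7 genes stand beside 39.0% of all genes, so nothing is read from their number. The 250 bases before their RefSeq starts (GRCm38.p6) are printed to show what the promoters of these kinases hold. Sequences were found in that table for 6 of the 7 genes; Trp63 had none. Capitals mark the E2F-type letters TTTCCCGC, TTTGGCGC, TTTCGCGC or TTTGCCGC, the cell cycle element letters TTTGAA or TTCGAA, and CCAAT, searched on both strands, with matches of the opposite strand shown as their reverse complement.
Atr (chr9:95857347-95857596, plus strand): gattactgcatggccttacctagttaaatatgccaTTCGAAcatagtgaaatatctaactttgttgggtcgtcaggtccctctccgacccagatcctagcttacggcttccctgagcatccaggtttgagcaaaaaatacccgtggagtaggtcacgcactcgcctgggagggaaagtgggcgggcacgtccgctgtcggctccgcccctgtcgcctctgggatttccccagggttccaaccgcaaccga
Chek2 (chr5:110839733-110839982, plus strand): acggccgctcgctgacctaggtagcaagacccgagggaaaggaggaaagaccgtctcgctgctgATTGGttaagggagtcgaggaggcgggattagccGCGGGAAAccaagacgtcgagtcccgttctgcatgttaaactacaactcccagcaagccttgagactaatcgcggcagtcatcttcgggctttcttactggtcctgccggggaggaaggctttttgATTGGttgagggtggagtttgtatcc
Chek2 held 1 E2F-type match and 2 CCAAT matches, Atr held 1 cell cycle element and neither of the others. Among all 32851 windows of this length, 1.86% held an E2F-type match, 17.15% a cell cycle element and 33.85% a CCAAT. These matches are letters in a window, and no binding was measured.

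Genes that work with the checkpoint were counted in lists by role. Among genes that p53 and p63 activate, 0 of 20 passed as higher and 1 as lower at Pd3, 1 of 19 as higher and 3 as lower at Pd7, and 0 of 18 in either direction at Pd21 (1 with an unadjusted p under 0.05, 0 by limma-voom). Their median log2 fold changes were -0.27, -0.11 and -0.10, beside -0.03, -0.00 and -0.01 over all genes tested, of which 1.64%, 5.88% and 0% passed as higher on the 3 days and 1.43%, 5.98% and 2.23% as lower. Without F1-HHcy Pd3 replicate 3, 7 of the 20 passed as lower at Pd3, beside 12.3% of all genes in that fit, and without F1-Control Pd21 replicate 2, 1 of 18, Cdkn1a, passed as lower at Pd21, beside 0.922%.

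Aen, a p53-induced nuclease of apoptosis, fell on both early days. It measured 24.1, 24.1 and 24.3 FPKM in F1-Control and 9.13, 14.6 and 9.11 FPKM in F1-HHcy ovaries at Pd3, and 17.5, 12.2 and 11.7 against 5.12, 4.63 and 6.72 FPKM at Pd7. The groups did not overlap on either day. The log2 fold changes were -1.11 (SE 0.18, adjusted p = 0.0287 from limma) and -1.18 (SE 0.19, adjusted p = 0.00678 from limma), and unlike Trp63 it was as low in F1-HHcy Pd3 replicate 3 as in replicate 1. The Pd3 call held in 7 of 13 alternative fits (adjusted p from 0.00185 to 0.173). It was lost without F1-HHcy replicate 1 and without any single F1-Control library of Pd3, while the Pd7 call held in 12 of 13 (up to 0.0647).

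Pmaip1 (Noxa), a death gene that p63 induces in damaged oocytes, fell at Pd7 from 2.28, 1.74 and 1.12 to 0.40, 0.15 and 0.19 FPKM, without overlap (log2 fold change -1.11 on the log2(FPKM + 1) scale, adjusted p = 0.00789 from limma). Cdkn1a, the cell cycle inhibitor p21, measured 5.82, 5.64 and 3.33 against 2.89, 1.55 and 2.15 FPKM at Pd7 (-0.88, adjusted p = 0.0343). At Pd21 it measured 13.4, 5.06 and 10.3 against 2.96, 2.57 and 3.38 FPKM, again without overlap, but did not pass (-1.33, adjusted p = 0.0766 from limma). The target that rose was Trp53inp1, a stress protein that promotes p53 activity, from 15.4, 9.75 and 12.5 to 20.05, 20.3 and 17.9 FPKM at Pd7 (0.61, adjusted p = 0.0461 from limma). Of these Pd7 calls, that of Pmaip1 held in 9 of the 10 alternative fits in which it reached the filter (adjusted p up to 0.0650; not tested on leaving out any F1-Control library), that of Cdkn1a in 7 of 13 (up to 0.135) and that of Trp53inp1 in 4 of 13 (up to 0.162). The Cdkn1a call was lost without F1-Control replicate 1 or 2 or F1-HHcy replicate 2 or 3, and the Trp53inp1 call without any single Pd7 library other than F1-Control replicate 1. Bbc3 (Puma), the other death gene of the p63 response, was at 2.13, 2.68 and 1.71 against 0.63, 1.22 and 1.35 FPKM at Pd3. It passed as lower without F1-HHcy Pd3 replicate 3 (-0.72, adjusted p = 0.0353 from limma). The most abundant targets were Ei24, Bax and Btg2, with means of 49.2, 46.7 and 28.7 FPKM over 18 libraries, although the Btg2 mean is 17.1 FPKM without F1-HHcy Pd3 replicate 3 (226 FPKM), below the 23.2 FPKM of Sesn1. None of the 3 passed on any day with all libraries.

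**Figure D4:**
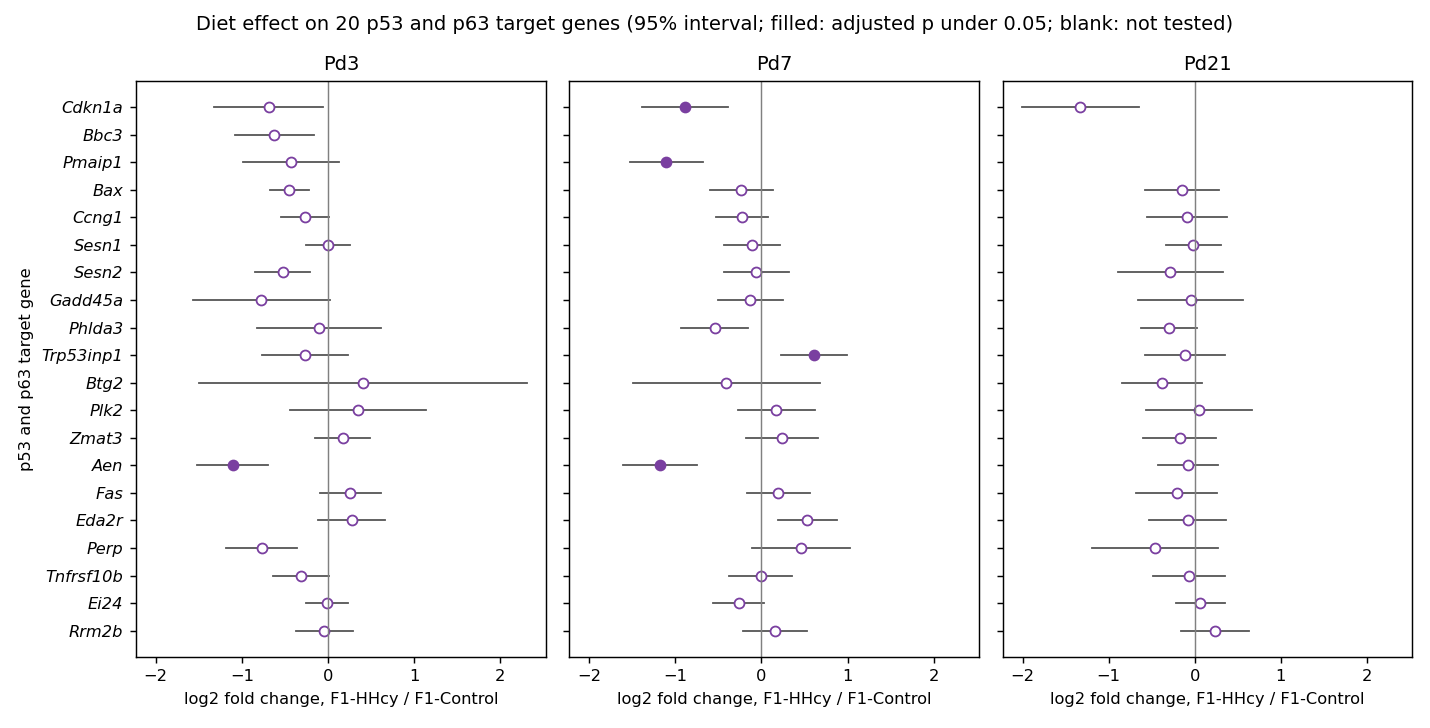
Log2 fold change between F1-HHcy and F1-Control ovaries (horizontal axis) of 20 p53 and p63 target genes on each day, with 95% intervals from limma; filled points passed at an adjusted p under 0.05, and a blank line means that the gene was below the expression filter. Aen passed at Pd3, and Aen, Pmaip1 and Cdkn1a (lower) and Trp53inp1 (higher) at Pd7.

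Break sensors and mediators such as Mre11a, Rad50, Nbn and Topbp1 recruit and amplify ATM and ATR. None of the 15 tested passed on any day (unadjusted p under 0.05 in 1, 0 and 0 at Pd3, Pd7 and Pd21; 0 by limma-voom), and their medians were -0.01, -0.10 and 0.05. The smallest p was that of Rnf8, a ubiquitin ligase at breaks, at Pd3 (-0.39, adjusted p = 0.119 from limma). Of the partners and regulators of p53, none of 10, 10 and 11 passed (unadjusted p under 0.05 in 1, 1 and 2); limma-voom passed 1, Trp73, as lower at Pd21. Mdm4, an inhibitor of p53 and the most abundant of them at 52.6 FPKM, had a log2 fold change of 0.58 at Pd7 (adjusted p = 0.151 from limma), and Trp73, which encodes the third family member p73, one of -1.07 at Pd21 (adjusted p = 0.0533). Without F1-HHcy Pd3 replicate 3, Usp7 and Csnk1e passed as lower at Pd3, beside 12.3% of all genes in that fit. At Pd21, 8 of 9 markers of oviduct and multiciliated cells passed as lower in F1-HHcy libraries, beside 2.23% of all genes. The 9 markers summed to 6.15 to 11.5 FPKM, against 101 to 496 FPKM in F1-Control libraries. Without F1-Control replicates 1, 2 and 3, it was 1, 4 and 0 of the 4 tested. The part of these markers in the Pd21 values of Trp73 and Cdkn1a was not tested.

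Of the targets of CHK1 and CHK2 in the cell cycle, Cdc25a, Cdc25b, Cdc25c, Wee1 and Pkmyt1, none of 5 passed (2, 1 and 0 with an unadjusted p under 0.05 at Pd3, Pd7 and Pd21, and 0 by limma-voom). Without F1-HHcy Pd3 replicate 3 Pkmyt1 and Cdc25b passed as lower and Cdc25c as higher at Pd3. In that fit 12.3% of all genes passed as lower and 9.34% as higher. The meiotic adaptors Hormad1 and Hormad2, which mark unpaired chromosomes for ATR, and Trip13 did not pass on any day when all libraries were used (0 with an unadjusted p under 0.05, 0 by limma-voom). Only Trip13 reached the filter at Pd7 and Pd21. Hormad1 and Hormad2 passed as lower at Pd3 without F1-HHcy Pd3 replicate 3 (-2.05 and -0.61, adjusted p = 0.00316 and 0.0333 from limma), again beside 12.3% of all genes.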

How the data were processed

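Poly-A RNA of 18 whole mouse ovaries or pools of them (3 libraries for each of 2 diets and 3 days) was sequenced by the study's service company with a stranded kit. The submitters' processing notes name FastQC 0.11.9, Trimmomatic 0.39, STAR 2.7.9a, featureCounts 2.0.1, DESeq2 1.36.0 and GRCm38; whether strand was used in counting is not given in the sources used here. Each library has 1 deposited value per gene symbol, whose unit the authors did not name. The deposited values were read as FPKM, because 1 length per gene and 1 total per library turned 100% of 27294 genes above 0 in 3 or more libraries into whole fragments within 0.02. All 18 libraries were mapped by their titles and no column was left out.

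FPKM were tested as log2(FPKM + 1) with limma 3.58.1 (trended variance, R 4.3.3), 2-sided, within each day, and in 1 model of all libraries for differences between days. Fold changes on this scale understate the change of genes near 1 FPKM. Test scripts were checked on simulated data. Alternatives were a pseudocount of 0.1, no filter, median-ratio scaling, values without mitochondrially encoded and hemoglobin genes, a replicate block, the threshold of the study's volcano plots (unadjusted p under 0.05, log2 change over 0.58 in size), all libraries in 1 model, and each library left out. Chosen after seeing the data were limma-voom on recovered fragments and the list counts and target genes under each alternative. Positions are from GENCODE vM21. Named genes were the 7 checkpoint genes, up to 3 of each list by smallest p on a day and 3 by mean level, cell type markers, and the most correlated genes (5 for Trp63, 3 otherwise); Bbc3 and others that passed only without 1 library were named after their values were seen. The genes and lists were chosen with earlier results of these data known. H2afx and Atrip, also listed as sensors, were not analysed here. A list of BRCA1 partners and recombination genes is not reported here. Tables were made with pandas 2.3.3 and numpy 2.4.6 in Python 3.11.15, and figures with matplotlib 3.10.9.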

Additional observations from a re-analysis of the deposited data

How the results depend on the processing

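No log2 fold change of a checkpoint gene that passed changed sign in any alternative. The number of the 7 genes that passed changed as follows. With no filter on low values 0 genes passed at Pd7 and for F1-HHcy Pd7 against Pd3. Median-ratio scaling gave 2 for F1-Control Pd7 against Pd3, where Chek1 joined Trp63. By the threshold of the study's volcano plots 1 gene, Trp63, passed at Pd3, 1 for Pd21 minus Pd3 and 1 for Pd21 minus Pd7. In 1 model of all 18 libraries 0 passed at Pd7, and limma-voom gave 0 for F1-HHcy Pd7 against Pd3. With each library left out in turn the number ran from 0 to 3 at Pd3, 0 to 1 at Pd7, 0 to 1 for Pd21 minus Pd3, 0 to 3 for F1-Control Pd7 against Pd3 and 0 to 2 for F1-HHcy Pd7 against Pd3. Trp63 relative to growing oocyte markers gave -2.37 at Pd3 and -0.49 at Pd7. The cause of these changes was not tested.

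The replicate numbers did not pair the libraries: the deviations of libraries of equal number correlated at -0.20 to -0.14 at Pd3, -0.11 to 0.09 at Pd7 and -0.34 to -0.12 at Pd21. With the replicate block 0 of the 7 genes passed for F1-HHcy Pd7 against Pd3, where Trp63 had an adjusted p of 0.0558 from limma, and the block changed no other count of checkpoint genes. Over all genes it cut the calls at Pd3 from 218 higher and 190 lower to 0 and 1, an erythroid gene, so that the calls of Aen and of the granulosa and stroma markers at Pd3 were lost. At Pd7 the block raised them from 782 higher and 795 lower to 955 and 919, and at Pd21 from 298 lower to 345. With 3 libraries per group, the change of Atr at Pd7 did not pass, and values near 1 FPKM such as those of Pmaip1 rest on few fragments.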
